A study of Mus musculus with 12 samples.

Results

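Scavenger receptors were followed on mouse expression arrays of whole liver and of cultured aortic endothelial cells. The receptors were Msr1, Marco, Cd36, Scarb1, Scarb2, Stab1, Stab2, Olr1, Scara3 and Colec12, and every probe set annotated to just one of these genes was taken. This gave 10 genes of the 18193 on the array and 19 probe sets of 34945 that carry a single gene name. Liver RNA came from mice of 4 genotypes, WT, null for Dscr-1, null for ApoE, or double null for both, 8 arrays with 2 per genotype. Aortic endothelial cells came from ApoE null and double null mice, 4 arrays with 2 per genotype, so that lack of ApoE was common to all 4. All mice were adult C57BL/6J. The labels give a high fat diet for 12 weeks for the liver mice, whereas the study's results describe normal chow for them. The aortic cells were primary cells kept in culture for several days, and the labels give neither the number of animals behind a culture nor the sex of the mice. Nothing in the labels separates biological from technical replicates beyond their numbers, so p-values measure the spread between these arrays.

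Scavenger receptors are cell surface and lysosomal proteins that bind modified lipoproteins, dying cells and microbial surfaces. Msr1 (SR-A) and Marco are class A receptors best known from macrophages. Cd36 takes up long chain fatty acids and oxidised LDL, and Olr1 (LOX-1) is an oxidised LDL receptor of endothelium. Scarb1 (SR-BI) moves cholesteryl ester from HDL into hepatocytes. Scarb2 (LIMP-2) is a lysosomal membrane protein that carries glucocerebrosidase. Stab1 and Stab2 clear waste in sinusoidal endothelium, including hyaluronan in the case of Stab2. Scara3 and Colec12 are further class A members, and Colec12 carries a C-type lectin domain. Dscr-1, the product of Rcan1, is a feedback inhibitor of calcineurin and so of the NFAT transcription factors. ApoE is the ligand through which remnant lipoproteins reach their receptors, and mice without it accumulate cholesterol in plasma. The study asked how Dscr-1 loss on top of ApoE loss changes lipid handling in liver and aortic endothelium.

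Signals of the targeted gene followed the ApoE labels in liver. Apoe ranged from 19937 to 21510 on the 4 WT and Dscr-1 null arrays and from 79.8 to 305.0 on the other 4. The brighter Rcan1 probe set gave 210.0 and 133.7 in WT and 255.2 and 353.1 in Dscr-1 null livers. The dimmer one, 1416601_a_at, gave 19.6 and 46.9 in WT and 7.5 and 5.1 in Dscr-1 null livers. In ApoE null livers it gave 41.0 and 2.7, and in double null livers 44.7 and 21.8. With these mixed directions Rcan1 did not check the Dscr-1 label. The aortic arrays bore out neither label. Apoe lay above the array median on all 4, at 7.27 and 7.17 in the cells labelled ApoE null and at 8.29 and 6.69 in those labelled double null. Rcan1 was not lower in the latter, with 9.99 and 9.92 against 10.09 and 10.26 by the brighter probe set and 6.30 and 5.95 against 6.65 and 6.86 by the dimmer one. It is not known here whether the Apoe and Rcan1 probe sets fall within the deleted sequence, so genotype directions in aortic cells, and those for Dscr-1 in liver, rest on the labels. All 9 measured hepatocyte markers lay above the array median on every liver array, and all 10 general endothelial markers did so on every aortic array. ApoE null replicate 1 stood apart among livers, with a mean correlation to the other arrays of 0.835 against 0.873 to 0.883. Double null replicate 2 stood apart among aortic arrays, at 0.965 against 0.980 to 0.982. In whole tissue and in mixed cultures, fewer cells of a type and less RNA per cell cannot be told apart.

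Of the 10 genes 6 had an entry among RefSeq promoters (GRCm38.p6), each running from 250 bases before to 50 bases after the transcription start. The promoters of Marco and Cd36 are shown because these genes had liver probe sets with higher signal in mice lacking ApoE, described further on. Capitals mark 3 short motifs on either strand, namely the NFAT core GGAAA, the ETS core GAGGAA bound by macrophage factors such as PU.1, and the AP-1 motif TGANTCA. The first and second can share letters. Both genes are on the minus strand, with Marco at chr1:120504975-120505274 and Cd36 at chr5:17835847-17836146.
Marco: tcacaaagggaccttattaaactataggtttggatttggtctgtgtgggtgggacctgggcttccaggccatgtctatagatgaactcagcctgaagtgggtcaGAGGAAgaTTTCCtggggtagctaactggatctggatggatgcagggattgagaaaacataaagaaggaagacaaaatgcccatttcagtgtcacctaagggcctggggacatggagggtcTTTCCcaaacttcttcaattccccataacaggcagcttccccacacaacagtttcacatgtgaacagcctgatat
Cd36: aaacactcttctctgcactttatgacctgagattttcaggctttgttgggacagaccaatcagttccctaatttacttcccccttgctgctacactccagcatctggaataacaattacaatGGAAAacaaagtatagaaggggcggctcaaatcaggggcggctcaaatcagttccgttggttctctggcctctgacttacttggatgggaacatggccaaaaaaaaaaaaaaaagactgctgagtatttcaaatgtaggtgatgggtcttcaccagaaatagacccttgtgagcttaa
The NFAT core was in 6 of 6 member promoters searched and in 61.3% of all 32851 promoters of this length. The ETS core was in 3 of 6 (Marco, Stab1 and Olr1), against 28.3% of all promoters, and the AP-1 motif in 1 of 6 (Olr1), against 7.81%. In Marco the ETS core began 146 bases before the start and NFAT cores began 138 and 25 bases before it. In Cd36 the NFAT core began 128 bases before the start. These letters describe the window and do not show that a factor binds there.

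Liver signals are MAS5 values on a linear scale, and array medians were between 32.2 and 44.7. Testing required a signal over the array median on 2 or more arrays of that tissue. In liver 15 of 19 member probe sets passed this filter. Olr1, Scara3, one probe set of Marco and one of Msr1 did not. The plot of liver signals by array shows each of the 19.

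**Figure D1:**
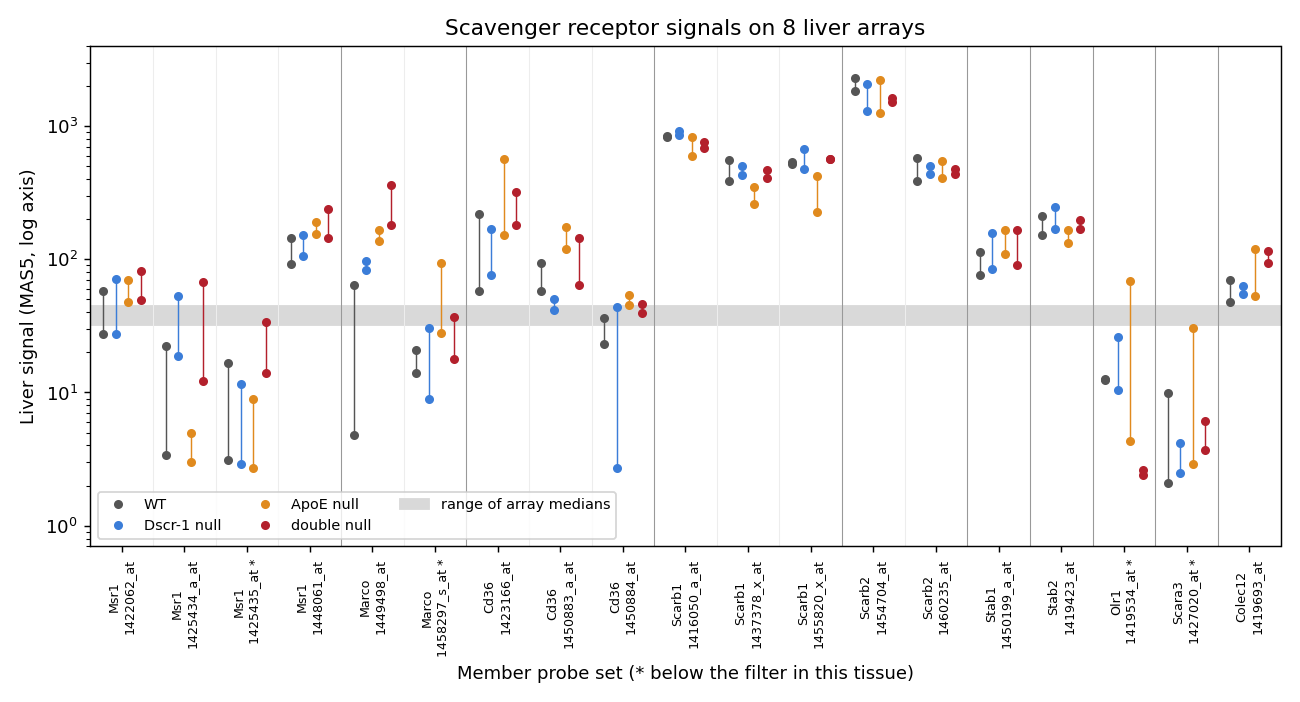
MAS5 signal (vertical log axis) of each of the 19 member probe sets on the 8 liver arrays. Points are single arrays, coloured by genotype and joined within a genotype, the grey band is the range of the 8 array medians (32.2 to 44.7), and Marco 1449498_at is the probe set whose 4 arrays lacking ApoE (137.6 to 360.7) all lie above the other 4 (4.8 to 97.1).

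Marco, the class A receptor of resident macrophages, had the lowest p of the members when livers lacking ApoE were set against livers with ApoE. Its probe set 1449498_at gave signals of 64.1 and 4.8 in WT and 97.1 and 83.1 in Dscr-1 null livers. ApoE null livers gave 137.6 and 164.9, and double null livers 360.7 and 181.2. The 4 arrays without ApoE thus lay above the 4 arrays with it, with WT replicate 2 far below the rest. On the log2(signal + 16) scale, which understates changes of low signals, the mean difference for ApoE loss over both Dscr-1 genotypes was 1.70 (SE 0.45, 95% interval 0.65 to 2.75). This is 3.24-fold. The unadjusted p of limma was 0.00592, and its adjusted p was 0.597 (Benjamini-Hochberg over all 32005 probe sets tested). Without WT replicate 2 the difference was 1.21, and without WT replicate 1 it was 2.18. Without ApoE null replicate 1, the liver array that stood apart, it was 1.76.

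Neighbouring genotypes in the order of mean signal differed less clearly for this Marco probe set. Dscr-1 null exceeded WT by 1.38 (SE 0.64, adjusted p = 0.9999 by limma), and WT replicate 2 is far from the other 3 arrays behind this difference. Double null exceeded ApoE null by 0.71 (SE 0.64, adjusted p = 0.944 by limma). Double null against WT gave 2.74 (SE 0.64, adjusted p = 0.671 by limma), and 1.77 without WT replicate 2. ApoE null against WT gave 2.03 (SE 0.64, adjusted p = 0.647 by limma), which moved to 1.06 without WT replicate 2 and to 3.003 without WT replicate 1. These comparisons share arrays and are not independent of each other. The other Marco probe set, 1458297_s_at, exceeded the median on 1 array only. It gave 21.0 and 14.0 in WT, 8.9 and 30.5 in Dscr-1 null and 93.7 and 28.0 in ApoE null livers, with the double null pair at 36.9 and 17.8. Its genotypes overlapped, and when all probe sets were fitted its difference for ApoE loss was 0.69 (SE 0.39, limma adjusted p = 0.875).

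Cd36 was also brighter in livers lacking ApoE, less uniformly. Probe set 1450883_a_at gave 94.2 and 58.0 in WT and 41.4 and 50.7 in Dscr-1 null livers. It gave 174.3 and 120.2 in ApoE null livers, with the double null pair at 144.8 and 64.1. One double null array fell between the WT arrays, and the other 3 arrays without ApoE were above all 4 with it. The difference for ApoE loss was 0.85 (SE 0.33, 95% interval 0.10 to 1.61, 1.81-fold). The unadjusted p was 0.0312 and the limma adjusted p was 0.725, and without ApoE null replicate 1 the difference was 0.73. Probe set 1423166_at gave 219.7 and 57.5 in WT, 169.7 and 75.9 in Dscr-1 null and 563.7 and 152.3 in ApoE null livers, with the double null pair at 319.4 and 181.9. Within each genotype replicate 1 was the brighter array, and the genotypes overlapped. Its difference was 1.11 (SE 0.55, limma adjusted p = 0.815). The third probe set, 1450884_at, lay at 2.7 to 53.5 with a difference of 0.67 (SE 0.39, limma adjusted p = 0.871). All 3 Cd36 probe sets had the same sign for ApoE loss, and the 95% intervals of 1423166_at and 1450884_at included 0.

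No tested Msr1 probe set separated livers lacking ApoE from livers with it, or livers lacking Dscr-1 from livers with it. Its probe set 1448061_at, above the median on all 8 arrays, gave 91.4 and 144.4 in WT, 151.3 and 105.4 in Dscr-1 null and 154.1 and 189.4 in ApoE null livers, with the double null pair at 239.2 and 143.3. One double null array lay below one WT array, and arrays with and without ApoE overlapped. The difference for ApoE loss was 0.51 (SE 0.30, 95% interval −0.19 to 1.20, limma adjusted p = 0.875). Probe set 1422062_at ranged from 27.5 to 82.1, with a difference of 0.38 (SE 0.35). Probe set 1425434_a_at gave 22.4 and 3.4 in WT, 53.0 and 18.9 in Dscr-1 null and 5.0 and 3.0 in ApoE null livers, with the double null pair at 67.3 and 12.3. It exceeded the array median on 2 arrays only, Dscr-1 null replicate 1 and double null replicate 1, and so passed the filter through its high arrays. Its difference for Dscr-1 loss over both ApoE genotypes was 1.06 (SE 0.44, limma adjusted p = 0.830). The unadjusted p was 0.0429, and the arrays with and without Dscr-1 overlapped. The brighter 1448061_at gave 0.11 (SE 0.30) for the same comparison.

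Scarb1, the HDL receptor, and Scarb2 were above the array median on all 8 liver arrays with each of their probe sets. Scarb1 1416050_a_at gave 836.9 and 826.7 in WT, 850.5 and 925.2 in Dscr-1 null and 592.7 and 830.7 in ApoE null livers, with the double null pair at 759.1 and 688.0. The 3 Scarb1 probe sets were each lower for ApoE loss, by 0.26, 0.34 and 0.37 on the log2 scale, and each 95% interval included 0 (limma adjusted p from 0.923 to 0.937). Scarb1 1455820_x_at had the largest single difference among them, with 515.6 and 536.7 in WT and 227.0 and 423.9 in ApoE null livers, with the double null pair at 562.2 and 568.6. Its double null arrays lay above its ApoE null arrays by 0.83 (SE 0.41, limma adjusted p = 0.831). The ending of this name marks a probe set that can also bind other transcripts. Scarb2 1454704_at ranged from 1253 to 2302 and 1460235_at from 387.6 to 580.4. Their differences for ApoE loss were −0.19 (SE 0.31) and −0.02 (SE 0.27), and for Dscr-1 loss −0.21 (SE 0.31) and −0.04 (SE 0.27).

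The sinusoidal endothelial receptors Stab1 and Stab2 were measured in liver by 1 probe set each. Stab2 gave 212.4 and 153.1 in WT, 246.5 and 167.5 in Dscr-1 null and 133.6 and 166.9 in ApoE null livers, with the double null pair at 196.0 and 169.2. Stab1 ranged from 76.4 to 165.3. Neither separated livers lacking ApoE from livers with it, with differences for ApoE loss of −0.20 (SE 0.27) for Stab2 and 0.27 (SE 0.33) for Stab1. Colec12 gave 69.6 and 47.4 in WT, 63.3 and 54.6 in Dscr-1 null and 118.5 and 52.9 in ApoE null livers, with the double null pair at 93.7 and 116.1. Of its 4 arrays without ApoE 3 lay above all arrays with it and the remaining one did not, for a difference of 0.54 (SE 0.31, limma adjusted p = 0.865). Olr1 was at 2.4 to 25.9 on 7 liver arrays and at 69.3 on ApoE null replicate 1. Scara3 was below the array median on all 8, at 2.1 to 30.7.

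Counted over the 15 tested probe sets, no member passed an adjusted p of 0.05 in any of the 7 liver comparisons. Very few probe sets of any kind did. For Dscr-1 null against WT, 0.00312% of all 32005 probe sets passed and 4.9% had an unadjusted p under 0.05, which no member had. For ApoE null against WT the shares were 0.00625% and 6.44%, with 1 member probe set (Marco) under the unadjusted threshold. For double null against WT they were 0.00625% and 6.06%, with the same single probe set. For double null against ApoE null they were 0% and 6.57%, with no member.

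For ApoE loss over both Dscr-1 genotypes, 0.00312% passed and 6.45% were under the unadjusted threshold, with 2 of 15 members (Marco and Cd36). For Dscr-1 loss over both ApoE genotypes the shares were 0% and 5.89%, with 1 of 15 (Msr1 1425434_a_at). For the interaction they were 0% and 5.48%, with no member. The median difference of the 15 probe sets for ApoE loss was 0.27, with 8 higher and 7 lower, against 0.02 over all probe sets. For Dscr-1 loss it was 0.11, with 10 higher and 5 lower, against 0.00. In 1 of 15 member probe sets (Marco) all arrays lacking ApoE lay above all arrays with it, as did 1.99% of all probe sets, and in none did they all lie below, against 1.42%.

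Macrophage marker genes moved with Marco across the liver arrays, and their part in its difference was not tested. Summed over 16 macrophage and Kupffer cell markers, the signal was 6423 to 8529 in WT, 6975 to 8432 in Dscr-1 null, 10590 to 16073 in ApoE null and 15493 to 22958 in double null livers. For ApoE loss 12 of the 15 tested were higher and 3 lower, with a median of 0.73, and 9 of the higher and 1 of the lower had an unadjusted p under 0.05. None passed after adjustment. Cd5l, a secreted protein of resident macrophages, gave 1114 and 2020 in WT and 5413 and 3208 in ApoE null livers. Lyz2 (lysozyme) gave 333.1 and 287.5 in WT and 901.9 and 689.6 in ApoE null livers. Not all markers had this pattern. The Kupffer cell lectin Clec4f gave 0.43 (SE 0.32), Adgre1 (F4/80) −0.06 (SE 0.30), and Cd163, the haemoglobin scavenger, was lower by 1.12 (SE 0.42, limma adjusted p = 0.712). Over the 8 arrays, Pearson r with the 15 tested markers had a median of 0.67 for Marco, 0.72 for Msr1, 0.61 for Cd36 and 0.71 for Colec12, and of −0.66 for Scarb1 and −0.46 for Scarb2. These are descriptions over arrays that share genotype and preparation. Hprt, an X-linked gene of purine salvage picked after its values were seen, also moved with ApoE loss. It gave 46.9 and 54.8 in WT livers, 819.7 and 65.9 in the Dscr-1 null pair, and 884.2 to 1019 on the 4 arrays lacking ApoE, a difference of 2.85 (SE 0.64, limma adjusted p = 0.574). Its part in the Marco and Cd36 differences was not tested.

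Searched over 14854 other genes, the closest profiles to Marco across the 8 liver arrays were those of Abcg1, a cholesterol exporter, with r = 0.96, Psap (prosaposin) with r = 0.95 and Acot9 with r = 0.95. For Cd36 (by its brightest probe set, 1423166_at) they were Myo1a, Gm15423 and Bmpr1b with r from 0.97 to 0.99. For Msr1 they were Pnpla2, Sema3f and Ctps2 with r from 0.95 to 0.96. With 8 arrays and this many genes such values are the top of a long ranking and carry no test.

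Aortic values are log2 as deposited, and array medians were 4.45 to 4.50. Of the 19 member probe sets 13 passed the filter. The Cd36 and Marco probe sets were below the median on all 4 arrays, as was Msr1 1425435_at. Cd36 ranged from 2.24 to 3.24 and Marco from 2.78 to 3.74. Stab1, at 10.90 to 10.97, and Scara3, at 8.50 to 9.93, lay above it on every array, and so did Scarb1, Scarb2, Stab2, Olr1 and Colec12.

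**Figure D2:**
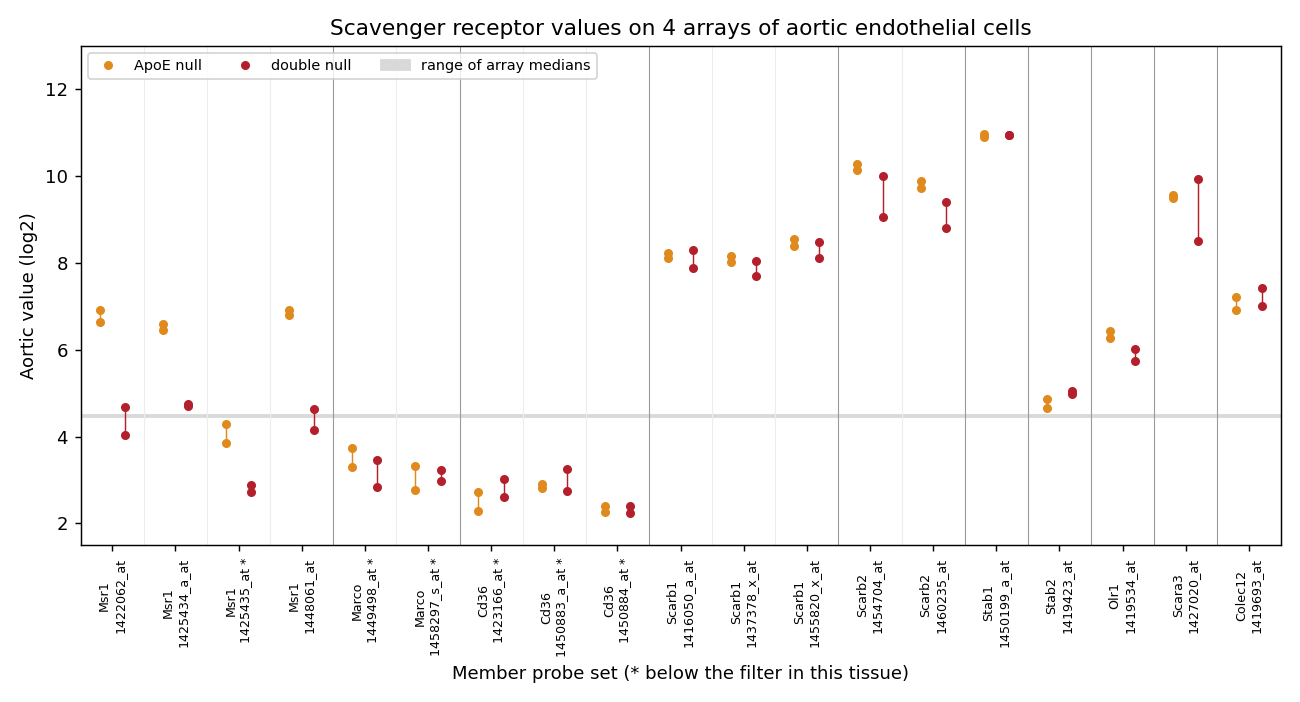
Deposited log2 value (vertical axis) of each of the 19 member probe sets on the 4 arrays of aortic endothelial cells. Points are single arrays, joined within a genotype, and the grey band is the range of array medians (4.45 to 4.50). The 4 Msr1 probe sets are the ones in which ApoE null and double null cells lie far apart.

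Msr1 had the largest differences of any member in these cells. Probe set 1448061_at gave 6.93 and 6.80 in ApoE null cells and 4.64 and 4.15 in double null cells. Probe set 1422062_at gave 6.92 and 6.65 against 4.68 and 4.04, and 1425434_a_at gave 6.46 and 6.60 against 4.71 and 4.76. In each of the 3 the double null arrays lay well below both ApoE null arrays. The fourth, 1425435_at, was below the array median throughout, at 4.30 and 3.85 against 2.89 and 2.72. These probe sets report one gene and are not independent of each other.

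The Msr1 differences, double null minus ApoE null, were −2.47 (SE 0.22, 95% interval −3.02 to −1.91) for 1448061_at, −2.42 (SE 0.26) for 1422062_at and −1.79 (SE 0.15) for 1425434_a_at. For 1425434_a_at, above the median on all 4 arrays, the double null cells were 3.46-fold lower. Its double null values of 4.71 and 4.76 lay just above the medians of those arrays, 4.49 and 4.50, so this fold also depends on low values. The double null means of the other 2, at 4.40 and 4.36, lay below the array medians, so that their differences depend on values near the low end of the scale and no fold is given. The unadjusted p was 9.93e-05, 0.000277 and 8.13e-05, and none passed after adjustment over 22927 probe sets, with limma adjusted p of 0.175, 0.254 and 0.155. With the run shared by same-numbered arrays as a block, the adjusted p was 0.539 for each. Within run 1 the difference of 1448061_at was −2.29 and within run 2 −2.65. Both 1448061_at and 1422062_at exceeded the median on both ApoE null arrays and on 1 double null array, so the high group alone was enough for them to enter the test. Without double null replicate 2 the 3 differences were −2.22, −2.11 and −1.82. The direction rests on the cells' labels, which Rcan1 did not bear out. The study itself singled out SR-A from these aortic arrays, so the Msr1 difference is not independent evidence of its direction.

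Scarb2, the lysosomal member, was lower in double null cells with both probe sets. Probe set 1460235_at gave 9.89 and 9.72 in ApoE null cells against 9.39 and 8.80 in double null cells, and 1454704_at gave 10.29 and 10.14 against 10.001 and 9.06. The groups did not overlap, with double null replicate 2 farthest from the rest. The differences were −0.71 (SE 0.24) and −0.69 (SE 0.34), both with a limma adjusted p of 1. The unadjusted p was 0.0344 and 0.0972. Without double null replicate 2 the first of them was −0.41. Olr1, the oxidised LDL receptor of endothelium, gave 6.27 and 6.42 in ApoE null cells against 6.03 and 5.73 in double null cells. Its difference was −0.47 (SE 0.18, limma adjusted p = 1, the unadjusted p being 0.0474), and it was −0.32 without double null replicate 2.

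The remaining members were near level or divided within double null cells. Stab1 gave 10.90 and 10.97 in ApoE null cells against 10.94 and 10.96 in double null cells, a difference of 0.01 (SE 0.14, 95% interval −0.36 to 0.39). Stab2, just above the median, gave 4.86 and 4.66 against 4.99 and 5.06, a difference of 0.27 (SE 0.16). Scara3 gave 9.50 and 9.56 in ApoE null cells but 9.93 and 8.50 in double null cells, so its difference of −0.32 (SE 0.48) stood within the spread of the double null arrays. Colec12 gave 6.91 and 7.21 against 7.02 and 7.41. The 3 Scarb1 probe sets differed by −0.08 to −0.21, and each 95% interval included 0.

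**Figure D3:**
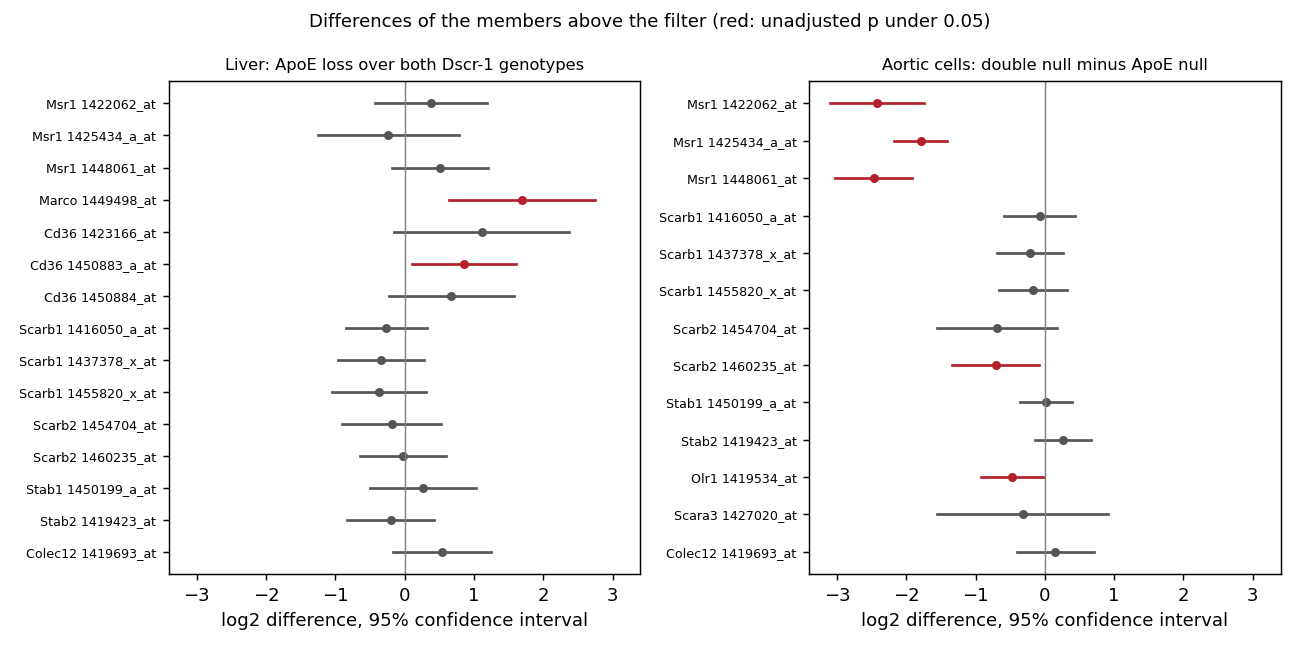
Fitted log2 differences (points) with 95% confidence intervals (lines) of the members above the filter, for ApoE loss over both Dscr-1 genotypes in liver (left, 15 probe sets) and for double null minus ApoE null in aortic cells (right, 13 probe sets). Red marks an unadjusted p under 0.05, which Marco and one Cd36 probe set had in liver and Msr1, one Scarb2 probe set and Olr1 had in aortic cells, and no member passed after adjustment.

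No member probe set passed in aortic cells, and 0.0262% of the 22927 tested did. An unadjusted p under 0.05 was found for 5 of 13 member probe sets, all of them lower in double null cells, against 4.72% of all probe sets in either direction. Of these 5, 3 were Msr1. In 6 of 13 both double null arrays lay below both ApoE null arrays, as they did in 14.1% of all, and in 1 of 13 (Stab2) both lay above, as in 15.8%. The 6 came from Msr1, Scarb2 and Olr1 only, and probe sets of the same gene are not independent. The median difference was −0.32 over these 13 and −0.01 over all. The 13 leave out the 6 members' probe sets below the filter, and Msr1 could enter the test through its high group alone.

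Several other features of the aortic arrays moved with the genotype, and their part in the Msr1 difference was not tested. Of 16 macrophage and Kupffer cell markers 4 were above the median on each array (Cd68, Csf1r, Lyz2 and Clec4f). On a linear scale the list summed to 331 and 357 in ApoE null and to 615 and 1413 in double null cells, so it was higher where Msr1 was lower. Lyz2 gave 5.33 and 5.48 in ApoE null cells against 7.46 and 9.47 in double null cells, and Csf1r, the macrophage growth factor receptor, gave 5.54 and 5.51 against 6.72 and 7.004. Cd68 gave 7.11 and 6.80 against 7.62 and 8.77, and Clec4f differed by −0.04 (SE 0.14), so that 3 of the 4 tested were higher and 1 lower. Ptprc (CD45), Adgre1, Itgam, Mpeg1 and C1qa of the same list were below the median on all 4 arrays. Smooth muscle and fibroblast markers summed to 7247 and 7480 against 10888 and 16591. Gene by gene, 6 of the 8 tested were higher and 2 lower in double null cells. Only 1 of them, Dcn, had an unadjusted limma p under 0.05. Lymphatic endothelial markers summed to 2829 and 3032 against 3894 and 5265. All 4 of these were higher in double null cells, 2 with an unadjusted limma p under 0.05, and none passed after adjustment. The endothelial cadherin Cdh5 was at 11.91 to 12.10 throughout, whereas Vwf (von Willebrand factor) was at 9.26 to 9.44 on 3 arrays and at 6.63 on double null replicate 2.

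Genes picked after their values were seen also divided the aortic groups. Xist, the transcript of the inactive X chromosome, was at 9.06 and 8.85 in ApoE null and at 4.04 and 4.51 in double null cells by its probe set 1436936_s_at. The Y-linked Eif2s3y was at 8.21 to 8.51 and Kdm5d at 6.99 to 7.30 on all 4 arrays by their brightest probe sets. The X-linked Hprt was at 6.90 and 6.73 in ApoE null and at 10.68 and 10.63 in double null cells. The sex of the mice is not in the labels. Dscr-1 loss and these other differences coincide over the 4 arrays, and cannot be told apart for Msr1.

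**Figure D4:**
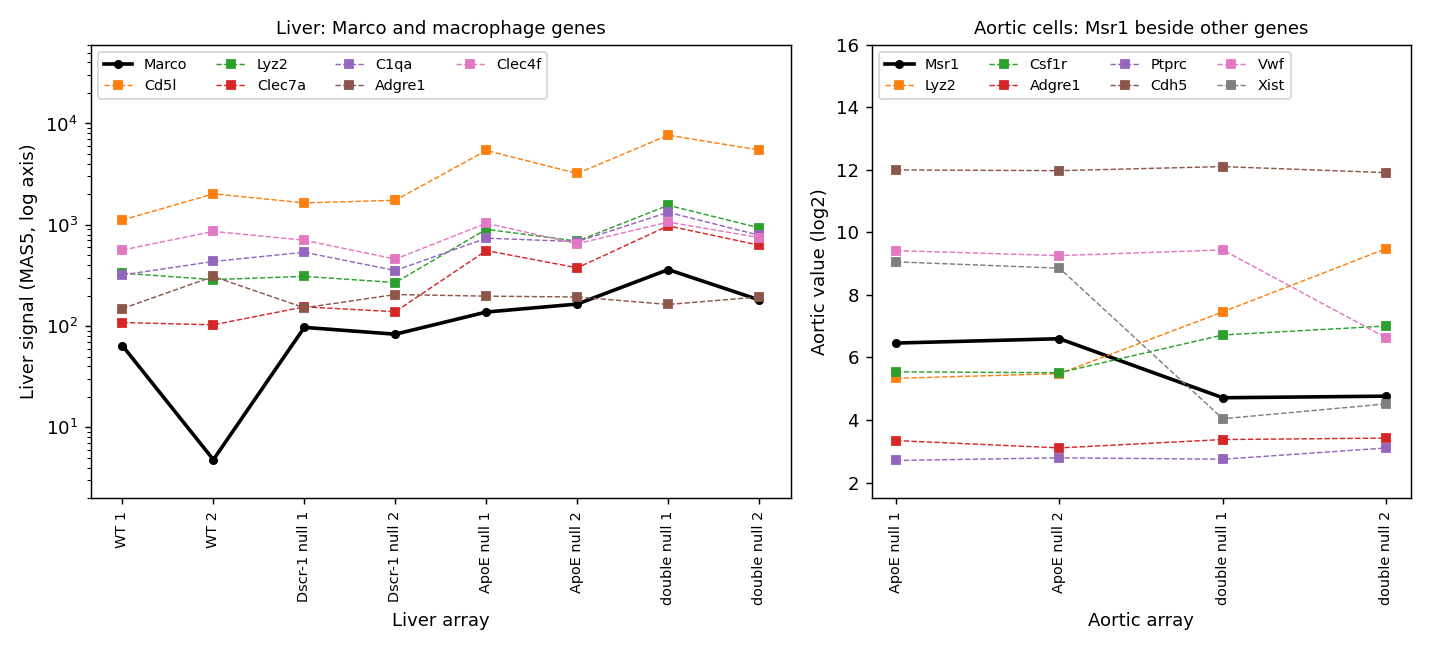
Left, MAS5 signal (log axis) of Marco 1449498_at and 6 macrophage genes on the 8 liver arrays, with Cd5l, Lyz2, Clec7a and C1qa higher on the 4 arrays lacking ApoE. Right, log2 value of Msr1 1425434_a_at and 7 other genes on the 4 aortic arrays. Msr1 and Xist are lower and Lyz2 and Csf1r higher in double null cells. Points are single arrays, and lines only join the points of a gene.

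Related genes were read from 3 lists, each gene by its brightest probe set. Of 16 other scavenger receptors 14 were tested in liver, and for ApoE loss 8 were higher and 6 lower, with a median of 0.07 and none passing. The lowest p was that of Clec7a (Dectin-1, a fungal glucan receptor of myeloid cells), at 108.4 and 102.9 in WT, 154.7 and 138.7 in Dscr-1 null and 556.5 and 375.8 in ApoE null livers, with the double null pair at 975.7 and 628.4. Its arrays lacking ApoE were all far above the others, with a difference of 2.13 (SE 0.28, limma adjusted p = 0.535). Cd68 followed with 1.38 (SE 0.36, limma adjusted p = 0.597), then Cd163, given above, and Cd44 with 0.81 (SE 0.30, limma adjusted p = 0.715). In aortic cells 8 of the 16 were tested, 5 higher and 3 lower in double null cells, and the hyaluronan receptor Cd44 had the lowest p with −0.70 (SE 0.17, limma adjusted p = 0.791).

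Of the genes that handle lipoprotein lipid after uptake, 12 were tested in liver, 8 higher and 4 lower for ApoE loss with a median of 0.14. Pltp, the phospholipid transfer protein, gave 457.4 and 332.5 in WT and 1043 and 754.7 in ApoE null livers, with the double null pair at 2121 and 1538, a difference for ApoE loss of 1.56 (SE 0.28, limma adjusted p = 0.535). In aortic cells 11 were tested, 6 higher and 5 lower, and Abcg1 had the lowest p with 6.49 and 6.10 in ApoE null cells against 7.10 and 7.12 in double null cells (difference 0.81, SE 0.19, limma adjusted p = 0.745). Partners and regulators of the receptors numbered 16 tested genes in liver, 11 higher and 5 lower for ApoE loss, with the lowest p for Tlr4 at 1.01 (SE 0.43, limma adjusted p = 0.772). In aortic cells 14 were tested, 6 higher and 8 lower, with the lowest p for Pparg, a nuclear receptor known to induce Cd36, at 0.50 (SE 0.16, limma adjusted p = 1). Cd36 itself was below the median there. No gene of the 3 lists passed in either comparison.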

How the data were processed

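RNA was hybridised to Affymetrix arrays of the Mouse Genome type. The deposited liver values are MAS5 intensity signals, scaled by the authors with the GeneChip Operating Software to an average of 100, and each liver array had a mean of 100.0 after trimming 2%. Aortic values were deposited as log2, with a normalization not given in the sources used here. Transcriptome Analysis Console appears in the submitters' notes without a version. Levels were therefore not set across the tissues.

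Liver signals were transformed as log2(signal + 16) and aortic values used as deposited, with no further scaling. After 64 control probe sets were set aside, 34945 of 45037 probe sets had 1 gene, 932 several and 9160 none, and 34754 of the names were matched by Entrez identifier to RefSeq (GRCm38.p6). Probe sets brighter than the array median on 2 or more arrays per tissue were kept (32005 in liver, 22927 in aortic cells). Each tissue was fitted with limma 3.58.1 in R 4.3.3 (lmFit, eBayes), with 4 (liver) and 2 (aortic cells) residual degrees of freedom, and p-values were adjusted by Benjamini-Hochberg over all kept probe sets at 0.05. Intervals are 95% intervals of the fit. Precision is limited by the number of arrays. A gene in a list was read by its brightest probe set. From each list up to 4 genes of lowest p could be named, and for each member the 3 genes most alike over the liver arrays. The fit was tested on simulated data.

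Groups follow titles and genotype labels. For the aortic controls the series description gives Dscr-1 null mice, where titles, genotype labels and the study name ApoE null mice, which were used. The members and lists were chosen with earlier results of these data known.

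Pairing by replicate number was examined. In liver, deviations from the genotype mean correlated at −0.00155 to 0.0293 between arrays sharing a number, and the numbers were not used for pairing. For aortic cells the correlation was 0.297, and by their source names arrays sharing a number also shared a run. Other offsets, no filter, quantile normalization, eBayes with trend and robust settings, 1 probe set per gene, only the 4 arrays compared, the replicate block and leaving out each array were tried as alternatives.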

Additional observations from a re-analysis of the deposited data

Results flagged for a closer look

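Msr1 probe set 1425434_a_at was flagged because its arrays moved in opposite directions in the 2 tissues when double null was set against ApoE null. In liver the double null arrays were both higher (67.3 and 12.3 against 5.0 and 3.0), with a log2 difference of 1.28. In aortic cells they were both lower, with a log2 difference of −1.79. The difference between the tissues was not tested, since the tissues were measured on separate scales. Opposite directions of this kind were found in 4.81% of the 20179 probe sets above the filter in both tissues, and in 1 of 11 member probe sets. All 4 liver values but one were below the array median, and the other 2 Msr1 probe sets above the filter did not show it. No group had enough arrays for a test of single outlying arrays.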

How the results depend on the processing

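The main fit passed no member in any of the 8 comparisons. Trend and robust settings passed 1 member probe set, Marco 1449498_at, in 3 liver comparisons. For ApoE null against WT its limma adjusted p was 0.0276, and 55 of all 32005 probe sets passed. For double null against WT it was 0.000146, and 118 of all passed. For ApoE loss it was 0.00157, and 104 of all passed. The main fit passed 2, 2 and 1 of all in these comparisons. Prior degrees of freedom under these settings ran from 0.308 to 81.0 over the liver probe sets, against 3.85 in the main fit. An offset of 64 passed the same Marco probe set for double null against WT (limma adjusted p = 0.029), where 37 of all passed. Leaving out 1 array passed 0 to 7 members in the aortic comparison (7 without double null replicate 1, 3 without double null replicate 2, 0 without either ApoE null array) and 0 to 0 in each liver comparison. With 1 double null array left, 1 residual degree of freedom remained. The lone array was assumed to vary like the 2 close ApoE null arrays, and the prior degrees of freedom rose from 2.91 to 38.9 and 43.0. Far more probe sets of any kind passed in the fits with 1 double null array than in the main fit. The member counts of those fits therefore carry no conclusion about scavenger receptors. The replicate block passed 0 members in every comparison. No alternative reversed a member result with an unadjusted p under 0.05, but some no longer had such a p. Fits with 1 array left out were among these, for Marco in ApoE null against WT, Cd36 1450883_a_at, Msr1 1425434_a_at in liver, Scarb2 1460235_at and Olr1. With each aortic array left out in turn, the Scarb2 1460235_at difference was between −1.01 and −0.41 and that of Olr1 between −0.62 and −0.32. Olr1 in aortic cells had an unadjusted limma p of 0.0749 with trend and robust settings and 0.0659 with the replicate block. Msr1 1425434_a_at for Dscr-1 loss in liver had 0.0514 with an offset of 64 and 0.059 with trend and robust settings. The Cd36 1450883_a_at difference for ApoE loss was between 0.60 and 1.11 with each liver array left out in turn. Many of the smaller member differences had no stable sign. Leaving out 1 liver array changed the sign of 9 (of 105, without double null replicate 2) to 15 (of 105, without WT replicate 2 or without ApoE null replicate 1), and leaving out 1 aortic array that of 0 to 4 of 13, the 4 without double null replicate 2. Quantile normalization changed 8 of 118, the offsets of 1 and 64 changed 1 and 2 of 105, and the other alternatives none. Depth of signal limits Marco, Cd36 and Msr1 1425434_a_at in liver, where some signals lie near or below the array medians. The offsets and the fits of 4 arrays apply to liver alone, and no further alternative was left out.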
